A study of Drosophila melanogaster with 6 samples.

Results

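The sperm leucyl aminopeptidases are a family of proteins related to the metallopeptidase leucyl aminopeptidase, and their RNA was followed here through the germline of the adult Drosophila melanogaster testis. The genes were taken by name, S-Lap1, S-Lap2, S-Lap3, S-Lap4, S-Lap5, S-Lap7, S-Lap8 and loopin-1, and all 8 were present among the 17612 genes of the count matrices. The data are 10x Genomics single-cell RNA sequencing of wild-type and chinmoST testes of adults aged 3–5 d, 6–8 d or 9–11 d, with 1 library per genotype and age and 6 libraries in all. Each library came from a pool of about 100 pairs of testes. The wild-type males carried the strain label Oregon R. The chinmoST males carried the strain label ChinmoST and a genotype label with Sod1[X-39] and e[1] over the balancer TM3 with Sb[1] and Ser[1], which names no chinmo allele. By background knowledge chinmoST is an allele with less of the transcription factor Chinmo in somatic cyst cells, which wrap the germ cells. Spermatids were removed by filtering during preparation, so the spermatids measured are those that remained. The cell types are those assigned by the authors, 6 of the germline and 11 somatic.

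Germline stem cells (GSCs) divide to give spermatogonia, which become spermatocytes, grow, transcribe most of the RNA that spermatids will later use, and enter meiosis. In spermatids the mitochondria fuse and then elongate along the tail as a pair of mitochondrial derivatives, the major of which fills with a paracrystalline material. Sperm leucyl aminopeptidases are among the most abundant proteins of Drosophila sperm and are constituents of that material, and several have lost residues that the enzyme needs for catalysis. Loopin-1 was first described as a protein on the Y chromosome loops of primary spermatocytes and in sperm tails.

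The genes lie on 2 chromosome arms (BDGP6 annotation, with the same coordinates as dm6). S-Lap1 (chromosome 3L, 8617235 to 8619474) and S-Lap2 (chromosome 3L, 8619888 to 8622091) are neighbours on the plus strand, 413 bp apart, and S-Lap2 overlaps GAPsec on the minus strand. S-Lap3 (chromosome 3L, 10465187 to 10468974) and S-Lap4 (chromosome 3L, 10490861 to 10492934) are also on the plus strand, and S-Lap4 lies inside Rbfox1 on the same strand. S-Lap5 (chromosome 2R, 13596677 to 13598750), S-Lap8 (chromosome 2R, 16491100 to 16493233) and loopin-1 (chromosome 2R, 16534943 to 16537086) are on the plus strand. S-Lap7 (chromosome 2R, 13778124 to 13780245) is on the minus strand and overlaps Cpr50Ca on the plus strand. Their longest annotated transcripts span 2055 to 2640 bases and encode proteins of 524 to 555 residues. A 3′ UMI counts 1 captured RNA molecule and does not scale with length, so levels of these genes of like length are set side by side below. Whether reads of related members could be assigned to the wrong one was not tested.

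The 6 libraries held 73222741 to 125618077 UMIs, of which the 8 genes took 0.750% to 1.55%. Of 31832 barcodes 26549 were kept as cells by the authors, 14152 of them in the germline. Barcodes with over 6000 genes, which the authors removed, held 55.2% to 84.4% of the UMIs of the family, so the levels below rest on the cells with fewer genes. The 3–5 d libraries of both genotypes shared 34 cell barcodes, against 0 to 7 in every other pair. From early spermatocytes on, S-Lap7 and S-Lap8 stood lower at 3–5 d than at the later ages in both genotypes. Results are therefore also given without the 3–5 d libraries. The 3 ages of a genotype served as its replicates, so that p-values measure the spread between these libraries, age included.

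Family RNA was low in GSCs/spermatogonia and higher at each step up to late spermatocytes, with smaller differences from there on. Levels are in CPM, the UMIs of a gene relative to all UMIs of that cell type in that library. In wild-type the summed level of the 8 genes was 3072 ± 2412 CPM in GSCs/spermatogonia, 10984 ± 2004 in early spermatocytes and 15352 ± 2056 in intermediate spermatocytes (SD, n = 3). It was 17777 ± 1463 CPM in late spermatocytes, 18205 ± 1036 in early spermatids and 17683 ± 1794 in late spermatids. The last 3 types overlapped in wild-type, early spermatids standing at 0.99 to 1.04 times late spermatocytes within a library. In chinmoST the sums were 318 ± 122, 5981 ± 1077, 12482 ± 1378, 16191 ± 509, 18590 ± 1940 and 18203 ± 2903 CPM in the same order, and within a library early spermatids stood at 1.02 to 1.28 times late spermatocytes. The order of the first 4 types was the same in all 6 libraries. These types were cut by clustering cells on genes that could include these, so this order is a description and carries no test.

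The steps between types were larger in chinmoST, and the ranges over libraries did not overlap from early to late spermatocytes. Within a library the sum was 1.41 to 1.89 times higher in late than in early spermatocytes in wild-type, and 2.42 to 3.28 times higher in chinmoST. From GSCs/spermatogonia to early spermatocytes it was 2.21 to 10.7 times higher in wild-type against 10.7 to 32.9 times higher in chinmoST. Part of the larger step was common to all genes. Scaled to library totals, as CPM is, the log2 fold change in late minus that in early spermatocytes had a median of 0.42 over 9029 genes. For the members it ran from 0.56 for S-Lap7 to 1.03 for S-Lap5. How many other genes had ranges without overlap was not counted. Whether the genotype effect differed between late and early spermatocytes was tested gene by gene, as given further on.

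**Figure D1:**
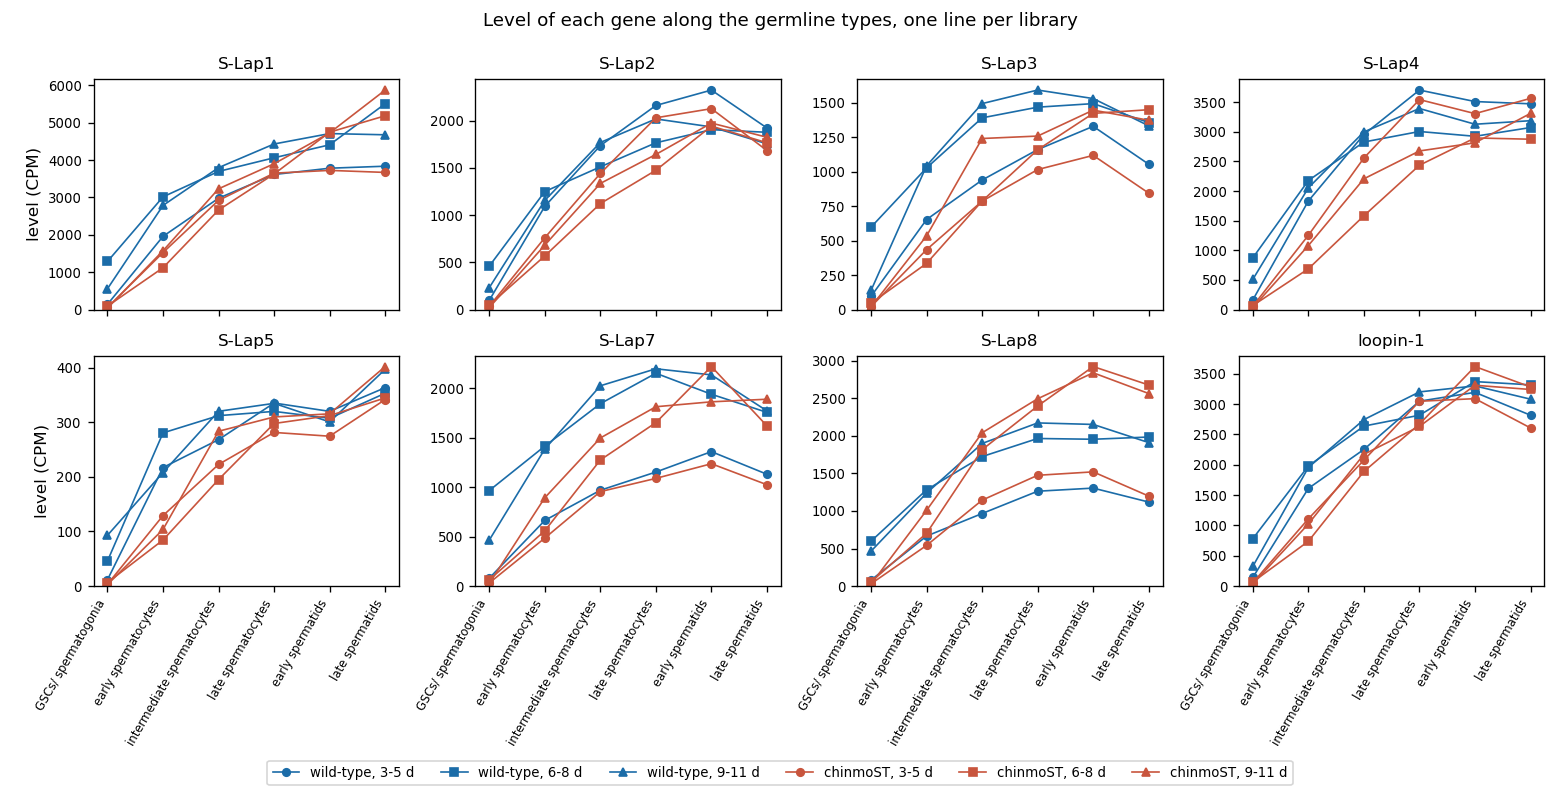
Level of each of the 8 genes (CPM, linear axis from 0, scaled per gene) in the 6 germline types, with 1 line per library, wild-type in blue and chinmoST in red, and the marker giving the age. Every gene climbs to late spermatocytes in all 6 libraries, the red lines lie lower at the early types, and S-Lap8 is the one gene whose red lines end above the blue lines at all 3 ages.

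All members shared this profile but not its height. S-Lap1 had the highest level in late spermatocytes of 5 of the 6 libraries, at 3615, 4062 and 4431 CPM in wild-type against 3651, 3628 and 3902 CPM in chinmoST from the youngest to the oldest age. S-Lap4 reached 3704, 3005 and 3393 CPM in wild-type against 3543, 2436 and 2677 CPM in chinmoST. Loopin-1 reached 3047, 2816 and 3200 CPM in wild-type against 3046, 2670 and 2631 CPM in chinmoST. These 3 genes made up most of the family RNA, and in each genotype the libraries of S-Lap4 and loopin-1 overlapped. S-Lap2 lay at 1475 to 2160 CPM over the 6 libraries, S-Lap7 at 1089 to 2198, S-Lap8 at 1263 to 2494 and S-Lap3 at 1015 to 1592. S-Lap5 was the rarest member in every germline type, at 281 to 335 CPM in late spermatocytes.

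S-Lap1 and S-Lap5 stood higher in late spermatids than in late spermatocytes in each library, and every other member did so in some libraries. For S-Lap4 the ratio was 0.94 to 1.02 in wild-type and 1.01 to 1.24 in chinmoST. S-Lap1 reached 3836, 5508 and 4677 CPM in wild-type late spermatids and 3670, 5186 and 5873 CPM in chinmoST late spermatids, above late spermatocytes in each library. S-Lap2 stood at 1922, 1877 and 1755 CPM in wild-type late spermatids and at 1684, 1765 and 1824 CPM in chinmoST, above late spermatocytes in 3 of the 6 libraries. The rare S-Lap5 was, like S-Lap1, higher in late spermatids than in late spermatocytes in 6 of 6 libraries. These values are given as levels among all UMIs of a type, so a gene can gain level where other RNAs are fewer.

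Genotypes were compared within each cell type by the quasi-likelihood F-test of edgeR on summed UMI counts, with Benjamini-Hochberg adjustment over all genes tested and a call at an adjusted p under 0.05. All 8 genes passed the filter on low counts in every germline type. In bulk sums of a cell type, fewer cells that make an RNA and less of that RNA per cell cannot be told apart.

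In early spermatocytes all 8 members had lower estimates in chinmoST and 1 of them, S-Lap5, passed the test. S-Lap5 stood at 217, 281 and 208 CPM in wild-type against 129, 84.4 and 104 CPM in chinmoST. The groups did not overlap, with every chinmoST library below the lowest wild-type library. The edgeR log2 fold change was -1.0 with an adjusted p of 0.0425, and the difference on the log2(CPM + 1) scale, which has no TMM scaling, was -1.15 ± 0.22 (SE, n = 3). Of the 6501 genes tested in this type 4.03% were called, 0.784% as lower. Without the wild-type 6–8 d library the adjusted p of S-Lap5 was 0.226, and without the wild-type 9–11 d library it was 0.145. Without the chinmoST 6–8 d library it was 0.245, and without the chinmoST 9–11 d library 0.141. In each of these fits 0 genes were called. S-Lap5 stayed called when only the wild-type or only the chinmoST 3–5 d library was left out. There 283 of 7124 and 512 of 7104 genes were called lower.

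The other 7 members did not pass the test in early spermatocytes with all libraries, although 5 of them also separated the genotypes. S-Lap4 stood at 1833, 2178 and 2054 CPM in wild-type against 1254, 688 and 1081 CPM in chinmoST, a log2 fold change of -0.84 with an adjusted p of 0.115. Loopin-1 stood at 1610, 1980 and 1955 CPM against 1108, 739 and 1024 CPM, with -0.78 and 0.117. S-Lap3 stood at 653, 1028 and 1043 CPM against 435, 335 and 535 CPM, with -0.87 and 0.0868. For these 3 genes the chinmoST libraries all lay below the wild-type libraries. S-Lap1 stood at 1960, 3017 and 2787 CPM against 1527, 1120 and 1575 CPM, for a log2 fold change of -0.70 and an adjusted p of 0.184. S-Lap2 stood at 1093, 1250 and 1155 CPM against 760, 568 and 683 CPM, with -0.62 and 0.137. S-Lap1 and S-Lap2, the neighbouring pair, also did not overlap between the genotypes.

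S-Lap7 and S-Lap8 were the 2 members whose groups overlapped in early spermatocytes. S-Lap7 stood at 664, 1415 and 1386 CPM in wild-type against 486, 559 and 893 CPM in chinmoST, for a log2 fold change of -0.63 and an adjusted p of 0.262. S-Lap8 stood at 666, 1282 and 1238 CPM in wild-type against 542, 703 and 1009 CPM in chinmoST, with -0.29 and 0.586. At each age both were lower in chinmoST, and the overlap came from the low wild-type values at 3–5 d. In all, 6 of the 8 members did not overlap, and among all genes at a mean of at least 50 CPM in this type 28.4% lay in the same way below. The members had a median log2 fold change of -0.74, against 0.06 over all genes tested.

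The type labelled early spermatocytes did not hold the same mix of markers in the 2 genotypes. The markers of GSCs/spermatogonia, 5 of the 6 listed ones being matched, summed to 14.0 to 64.0 CPM in wild-type early spermatocytes and 118 to 189 CPM in chinmoST ones. The 4 markers of late spermatocytes summed to 1107 to 1429 CPM in wild-type against 533 to 738 CPM in chinmoST. The 5 markers of early spermatocytes themselves overlapped, at 701 to 1424 and 863 to 1501 CPM. Markers of intermediate cyst cells summed to 62.0 to 119 CPM in wild-type against 199 to 399 CPM in chinmoST, with all 3 of them present in each chinmoST library, and those of hemocytes were at 0 in wild-type. Depth moved too, with median UMIs per cell of 2581 to 3518 in wild-type against 1390 to 1673 in chinmoST. The part of these marker and depth differences in the lower family levels was not tested.

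Cells were then compared at equal depth by thinning each to 1000 UMIs. At this depth the median early spermatocyte held 8, 12 and 11 family UMIs in wild-type, from the youngest to the oldest age, and 5, 6 and 9 in chinmoST. Cells with 2 or fewer family UMIs were 4.72% and 0.980% of the wild-type cells at 3–5 and 6–8 d, and 0 of 79 at 9–11 d, which allows a share of up to 3.80%. They were 15.4%, 20.6% and 7.62% of the chinmoST cells, the larger share at each age. Cells with 10 or more were 35.8%, 74.5% and 60.8% in wild-type against 17.9%, 25.7% and 43.9% in chinmoST. In late spermatocytes the medians were 16, 16 and 19 in wild-type against 15, 14 and 15 in chinmoST. Thinning left out 13 chinmoST early spermatocytes and 40 chinmoST late spermatocytes of 3–5 d, all under 1000 UMIs.

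**Figure D2:**
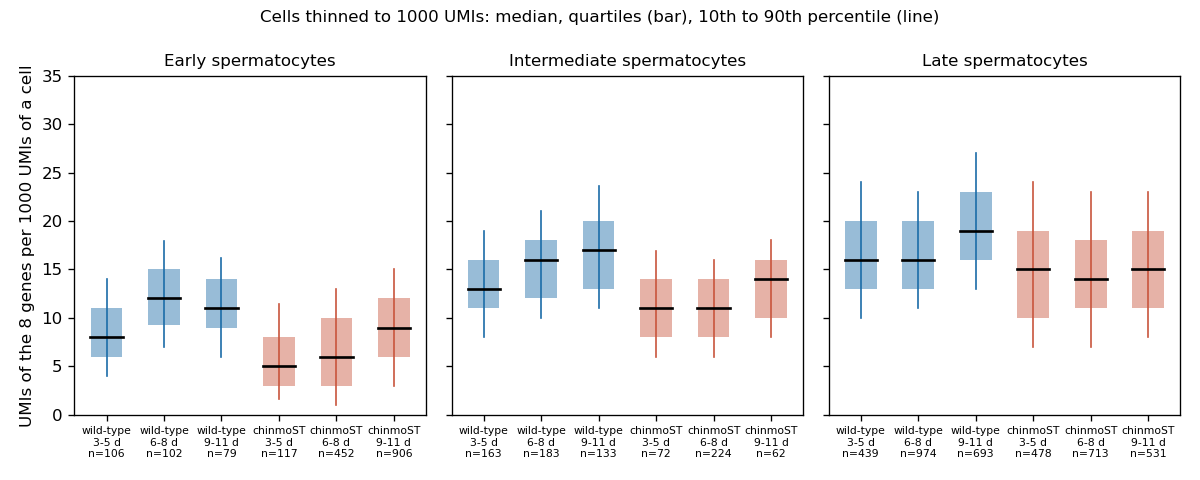
Family UMIs per cell after thinning to 1000 UMIs, in early, intermediate and late spermatocytes of each library (black line, median over cells; bar, quartiles; thin line, 10th to 90th percentile; n, cells). In early spermatocytes the chinmoST medians are 5, 6 and 9 against 8, 12 and 11 in wild-type, and in late spermatocytes they are 15, 14 and 15 against 16, 16 and 19.

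In GSCs/spermatogonia the family was low in chinmoST and uneven in wild-type, and no member passed the test. The sum of the 8 genes was 814, 5613 and 2790 CPM in wild-type against 295, 450 and 210 CPM in chinmoST. All 8 members lay below the wild-type range in chinmoST, against 17.2% of all genes at a mean of at least 50 CPM. Their edgeR log2 fold changes ran from -2.44 for S-Lap7 to -1.85 for S-Lap2, with adjusted p-values from 0.0643 to 0.224, and their median was -2.15 against 0.42 over all genes tested. Of the 6469 genes tested 0.34% were called. In wild-type these values come from 18, 6 and 4 cells with 490, 122 and 60 family UMIs, against 49, 211 and 162 cells with 617, 1882 and 1907 family UMIs in chinmoST.

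The cells given this name differed widely in depth between libraries. The median cell held 26274, 2409 and 3963 UMIs in wild-type against 38045, 1807 and 63121 in chinmoST. The markers of GSCs/spermatogonia summed to 414 to 1069 CPM in wild-type, with 3 to 5 of the 5 matched markers above 0, and to 663 to 731 CPM in chinmoST. The family level in chinmoST GSCs/spermatogonia was within or under the range of hub cells, the somatic niche, which read 1770, 1118 and 426 CPM in wild-type against 737, 413 and 233 CPM in chinmoST. These sums are weighted towards the deep cells, and with each cell scaled by itself the mean in chinmoST GSCs/spermatogonia was 1416 CPM. At 1000 UMIs per cell, 16.3% of chinmoST GSCs/spermatogonia held any family UMI at 3–5 d (95% interval 7.32% to 29.7%), 74.9% at 6–8 d (68.5% to 80.6%) and 32.7% at 9–11 d (25.6% to 40.5%). Hub cells of chinmoST gave 54.8% (36.0% to 72.7%), 44.4% (21.5% to 69.2%) and 42.9% (17.7% to 71.1%), at median depths of 17589, 32649 and 30888 UMIs. These Clopper-Pearson intervals cover counting error within a library. At 3–5 and 9–11 d the germ cell share was no higher than that of hub cells and is not read as expression. At 6–8 d it was higher, with intervals that overlapped only between 68.5% and 69.2%. The germ cells of that age had a median of 1807 UMIs against 32649 in hub cells. As a mean over the chinmoST libraries, the share at 1000 UMIs was 80.3% in late cyst cells and 94.98% in pigment cells. The 6–8 d share is therefore not read as expression either.

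In intermediate spermatocytes the sum was 13066, 15944 and 17047 CPM in wild-type against 12107, 11331 and 14008 CPM in chinmoST. No member passed the test, and log2 fold changes ran from -0.58 for S-Lap4 to 0.00 for S-Lap8, with a median of -0.48 against 0.01 over all 6006 genes tested, of which 0.466% were called. The groups did not overlap for S-Lap2, S-Lap4 and loopin-1, 3 of the 8 members, against 10.5% of all genes at a mean of at least 50 CPM. S-Lap4 stood at 2955, 2828 and 2999 CPM in wild-type against 2558, 1583 and 2207 CPM in chinmoST. S-Lap8 went the other way at each age, with 966, 1724 and 1899 CPM in wild-type against 1144, 1816 and 2041 CPM in chinmoST, and its groups overlapped widely.

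In late spermatocytes the sum was 16438, 17553 and 19338 CPM in wild-type against 16131, 15715 and 16728 CPM in chinmoST, and the ranges overlapped. No member passed the test, and the log2 fold changes ran from -0.46 for S-Lap3 to 0.06 for S-Lap8, with a median of -0.33 against 0.02 over all genes. None of the 7662 genes was called in this type (0.0%), while 912 had an unadjusted p under 0.05 and DESeq2 called 181. S-Lap5 was the only member whose groups did not overlap, at 335, 320 and 335 CPM in wild-type against 281, 298 and 310 CPM in chinmoST, where 6.75% of genes lay below in that way. Its adjusted p was 0.420.

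In spermatids the genotypes overlapped. The summed level in early spermatids was 17123, 18304 and 19189 CPM in wild-type against 16398, 20082 and 19292 CPM in chinmoST. No member passed the edgeR test in early spermatids, where 1.63% of 9276 genes were called, and the median log2 fold change of the members was -0.12. In late spermatids the sum was 15714, 19224 and 18112 CPM in wild-type against 14933, 19200 and 20476 CPM in chinmoST. No member passed there, where 0.68% of 6472 genes were called, and the median of the members was -0.07. None of the 8 members separated the genotypes in either type, against 5.66% and 5.16% of all genes that lay below. Over the 24 pairs of member and age, chinmoST was the lower in 24 in GSCs/spermatogonia, 24 in early spermatocytes, 21 in intermediate spermatocytes, 20 in late spermatocytes, 12 in early spermatids and 12 in late spermatids.

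**Figure D3:**
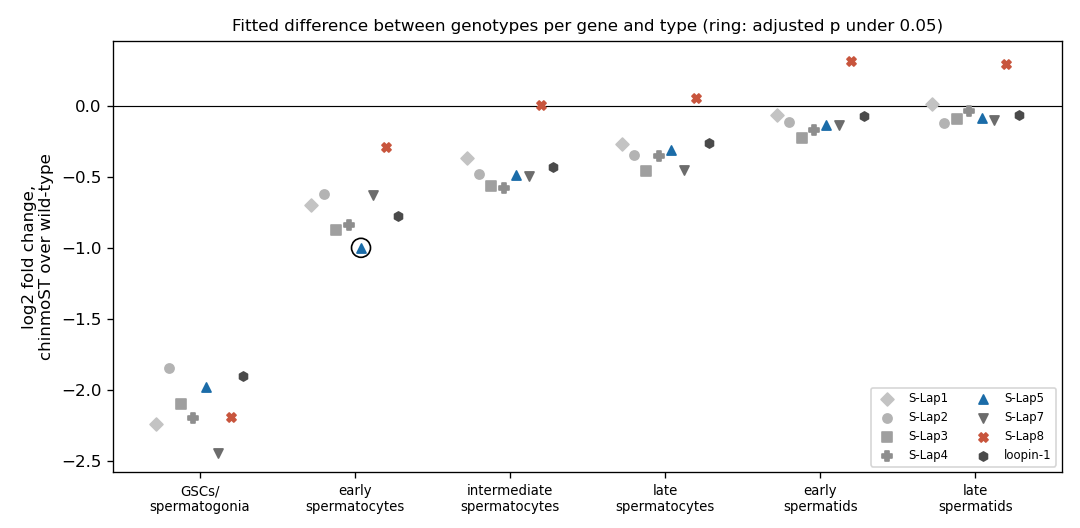
Fitted log2 fold change (edgeR, chinmoST over wild-type) of each gene in the 6 germline types, with a ring around the 1 value with an adjusted p under 0.05. The points run from -2.44 in GSCs/spermatogonia to near 0 in spermatids, S-Lap5 in early spermatocytes carries the ring, and S-Lap8 is the highest point in every type after the first.

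Without the 3–5 d libraries, a comparison of 2 against 2 libraries chosen after seeing the data, far more genes were called, members included. In early spermatocytes 7 of the 8 members were then called lower, all but S-Lap8, where 46.5% of genes were called and 21.3% as lower. S-Lap5 had a log2 fold change of -1.18 with an adjusted p of 0.000142, S-Lap4 -1.05 with 0.00396 and S-Lap3 -1.04 with 0.00147. S-Lap8 stood at -0.34 with an adjusted p of 0.311. In GSCs/spermatogonia 7 members were called lower, all but S-Lap5, where 14.0% of genes were called and 6.98% as lower. In intermediate spermatocytes 7 were called, all but S-Lap8, where 23.9% of genes were called and 13.2% as lower. In late spermatocytes the same 7 were called, where 35.3% of genes were called and 17.6% as lower, and S-Lap4 stood at -0.55 with an adjusted p of 0.00436 while S-Lap8 stood at 0.01 with 0.942. In early and late spermatids no member was called, where 9.79% and 3.2% of genes were.

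The effect of genotype was then compared between late and early spermatocytes in 1 edgeR fit with an interaction term. All 8 members had a positive estimate, meaning that chinmoST lay closer to or further above wild-type in late spermatocytes, but no member was called, and neither was any of the 9029 genes tested (0.0%). S-Lap5 had the largest estimate, a difference of 0.87 in log2 fold change with an unadjusted p of 0.00691 and an adjusted p of 0.510. S-Lap7 had the smallest, 0.36 with an adjusted p of 0.845. The median over all genes was 0.26. With the library as a block, 81 genes were called (0.897%) and no member, the adjusted p of S-Lap5 being 0.0602.

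Members also differed in how they varied with age, which is described without a test because each genotype has 1 library per age. S-Lap7 and S-Lap8 had the highest ratios of later to earlier level among the members, and S-Lap3 and S-Lap1 had smaller ones. From early spermatocytes to late spermatids the mean of the 2 later ages was 1.45 to 2.11 times the 3–5 d level for S-Lap7 and 1.57 to 2.19 times for S-Lap8, in both genotypes. The same ratio was 1.00 to 1.67 for S-Lap3, 0.88 to 1.51 for S-Lap1, 0.77 to 1.10 for S-Lap2 and 0.71 to 1.15 for S-Lap4. The median over all genes at these types was 0.82 to 1.03 and the 95th percentile 2.21 to 2.78. The ratios of S-Lap7 and S-Lap8 thus lay within the spread of all genes. The 3–5 d libraries also differ from the others in their set of cell barcodes, so age and library preparation cannot be told apart.

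The makeup of the family followed the same division. In late spermatocytes S-Lap8 made up 7.68%, 11.2% and 11.2% of the family UMIs in wild-type against 9.15%, 15.3% and 14.9% in chinmoST, higher in chinmoST at each age. S-Lap7 made up 7.02%, 12.3% and 11.4% in wild-type against 6.75%, 10.5% and 10.8% in chinmoST, lower at each age. S-Lap4 made up 22.5%, 17.1% and 17.5% in wild-type against 22.0%, 15.5% and 16% in chinmoST, so its share was highest at 3–5 d, where that of S-Lap7 and S-Lap8 was lowest. In barcodes with over 6000 genes, which are no part of the annotated cells, S-Lap8 made up 7.26%, 10.8% and 11.0% in wild-type against 9.38%, 14.9% and 14.5% in chinmoST, the same order.

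**Figure D4:**
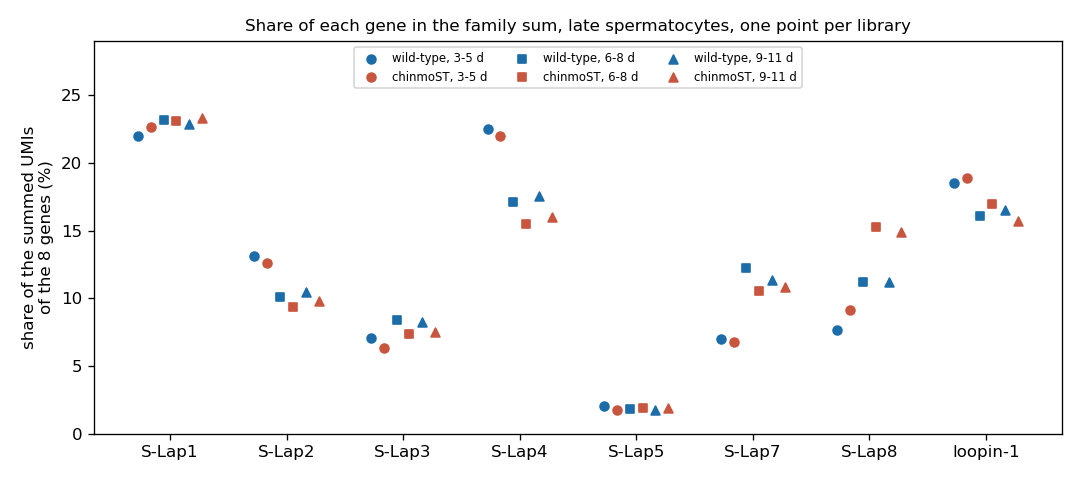
Share of each gene in the summed UMIs of the 8 genes in late spermatocytes (%, linear axis from 0), with 1 point per library, colour for genotype and marker for age. S-Lap8 is 7.68% and 9.15% at 3–5 d and 11.2% to 15.3% at the later ages, with chinmoST above wild-type at each age, while S-Lap4 is highest at 3–5 d.

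By CPM, S-Lap8 was the member that lay lower in chinmoST at each age in the first 2 germline types and higher at each age in the other 4. With the TMM scaling of edgeR its log2 fold change was 0.00 in intermediate and 0.06 in late spermatocytes. In early spermatids it stood at 1305, 1955 and 2152 CPM in wild-type against 1521, 2923 and 2840 CPM in chinmoST, and in late spermatids at 1119, 1985 and 1910 against 1198, 2678 and 2564 CPM. It was the higher in chinmoST at each of the 3 ages in both types, with edgeR log2 fold changes of 0.32 and 0.29 and adjusted p-values of 0.818 and 0.940. Without the 3–5 d libraries these were 0.38 with an adjusted p of 0.0652 and 0.33 with 0.147, still not called.

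Across the 36 combinations of library and germline type, the members moved closely together. Pearson correlations of log2(CPM + 1) between pairs of members ran from 0.952 to 0.997, a description over points that share libraries and depth. Many genes outside the family also followed its sum. By correlation with that sum S-Lap5, S-Lap7 and S-Lap8 ranked 93, 180 and 196 of the 3441 genes at a mean of at least 50 CPM. Over the 18 points of late spermatocytes and spermatids, where the common rise is absent, the members were less alike. S-Lap7 then correlated at 0.889 with S-Lap3 and 0.821 with S-Lap8, while S-Lap4 correlated at -0.763 with S-Lap8 and -0.579 with S-Lap7.

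The 10 genes outside the family with the profile most like its sum were CG14589, Klp59C, CG14154, CG12699, Hsp60B, CG4669, CG33340, Hsc70-2, Tssk and CG8564. Their Pearson correlations with the sum ran from 0.993 to 0.996 over the 36 points. Klp59C encodes a kinesin, Hsp60B a chaperonin needed for male fertility, Hsc70-2 a chaperone of the Hsp70 family and Tssk a kinase of the testis-specific serine kinase family. CG12699 was the most abundant of the 10, at 5118 CPM in wild-type against 2875 CPM in chinmoST early spermatocytes and at 7359 and 7137 CPM in late spermatocytes.

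The related peptidases grsm and Dip-B followed the profile of the family less closely, grsm with a shallower rise and Dip-B with a fall after early spermatocytes. The gene grsm, which encodes a leucyl aminopeptidase not restricted to sperm, stood at 215, 352 and 381 CPM in wild-type late spermatocytes and 225, 375 and 389 CPM in chinmoST. Within a library grsm stood in late spermatocytes at 1.20 to 1.51 times early spermatocytes in wild-type and 1.07 to 1.58 times in chinmoST. For the family sum these ranges were 1.41 to 1.89 and 2.42 to 3.28 times. The gene grsm ranked 1508 of the 3441 genes at a mean of at least 50 CPM in likeness to the family, with a correlation of 0.779. Dip-B, which encodes dipeptidase B, stood in early spermatocytes at 0.62 to 2.30 times GSCs/spermatogonia in wild-type and 2.16 to 3.40 times in chinmoST. It then went down from 57.4 to 112 CPM in early spermatocytes to 2.47 to 11.2 CPM in early spermatids. Neither gene was called in any germline type.

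A list of 21 genes of mitochondrial fusion, the mitochondrial derivative and the sperm mitochondrion was set beside the family. It holds fzo and Marf, which fuse mitochondria, the mitochondrial import and porin genes tomboy40, tomboy20, porin and Porin2, the sperm proteins dj and djl, the testis cytochrome Cyt-c-d and others. Of its genes 18 were tested in GSCs/spermatogonia, 20 in late spermatids and 21 in each other type, and 0 were called in every type. With the age as a block 6 of 21 were called in early spermatocytes, 4 of them lower, where 27.4% of all genes were called. Without the 3–5 d libraries 4 of 18, 11 of 21, 12 of 21 and 11 of 21 were called from GSCs/spermatogonia to late spermatocytes, beside the 14.0%, 46.5%, 23.9% and 35.3% of all genes given above, and 0 in spermatids. Of these 3, 9, 10 and 10 were lower. Its estimates leaned the same way as those of the family, with 17 of 21 below 0 in early spermatocytes and a median of -0.44, against -0.74 for the 8 members. In late spermatocytes 15 of 21 were below 0 with a median of -0.23.

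Family RNA was also read in every somatic type, at levels below those of late spermatocytes and spermatids. In hub cells and cyst stem cells (CySCs) the sum was 233 to 1770 and 317 to 952 CPM over the 6 libraries. In late cyst cells it was 3713, 2917 and 1680 CPM in wild-type against 2196, 1629 and 1879 CPM in chinmoST, and in intermediate cyst cells 6872, 4305 and 2882 against 4350, 2490 and 2097 CPM. The highest somatic reading was in pigment cells, at 8487, 12177 and 11069 CPM in wild-type against 5857, 3800 and 8909 CPM in chinmoST. Pigment cells also carried the early spermatid markers, at 1219 to 1433 CPM in wild-type against 414 to 895 CPM in chinmoST, beside their own markers at 3812 to 10002 and 1656 to 10431 CPM. Free RNA from germ cells gives UMIs to droplets of other cells, and its part in these readings was not tested.

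The makeup of the family in somatic cells was set beside that in the germline of the same library. S-Lap8 made up 7.27%, 10.3% and 10.3% of somatic family UMIs in wild-type against 8.45%, 14.6% and 12.8% in chinmoST. In germ cells its shares were 7.54%, 10.7% and 11.1% in wild-type against 9.03%, 14.7% and 14.4% in chinmoST. S-Lap7 stood higher in somatic cells at each age in both genotypes, with 8.00%, 13.7% and 13.3% of the somatic family UMIs in wild-type against 7.70%, 10.8% and 11.1% in germ cells, and with 8.37%, 12.1% and 13% in chinmoST against 7.34%, 10.7% and 10.3%. In late cyst cells its share exceeded the germline share by 1.21 to 4.99 percentage points in 6 of 6 libraries, while the difference for S-Lap8 was -5.09 to -0.73 points. The share of S-Lap7 was also the higher in 6 of 6 libraries in somatic cells at the base of the testis, by 0.43 to 6.55 points, and in male gonad associated epithelium, by 0.46 to 3.81 points. It was higher in each library compared in CySCs and early cyst cells. In every other somatic type it took both signs, with -0.24 to 1.69 points in intermediate cyst cells and -0.83 to 3.29 in pigment cells. Such shifts were not particular to S-Lap7. Loopin-1 lay at -2.69 to -1.49 points in male gonad associated epithelium and S-Lap1 at -4.76 to -1.34 at the base of the testis.

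**Figure D5:**
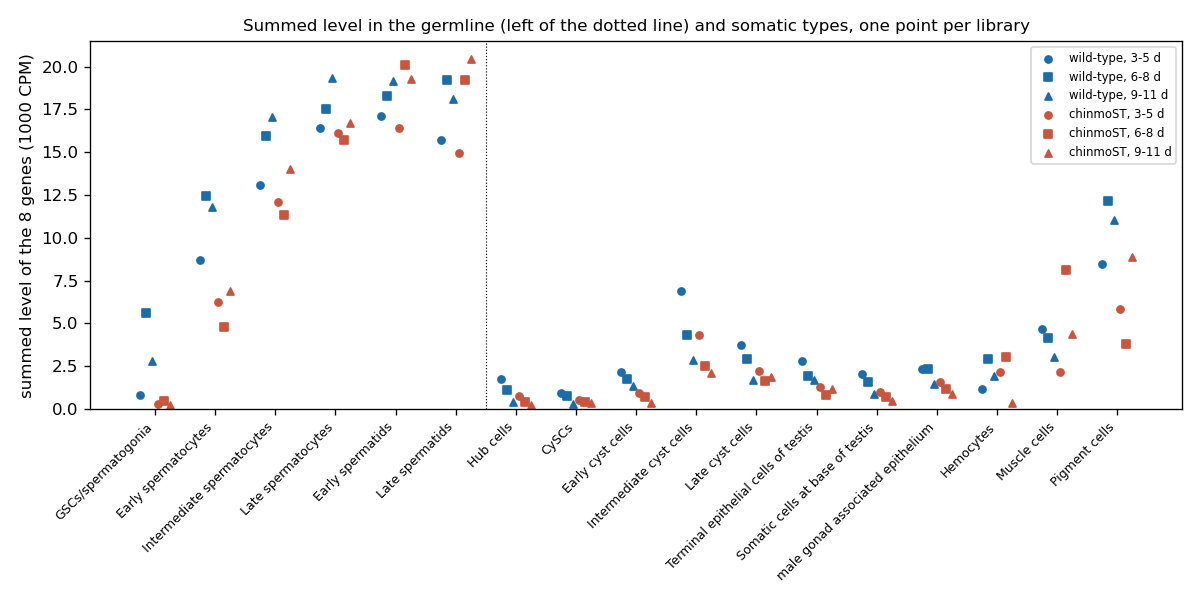
Summed level of the 8 genes (1000 CPM, linear axis from 0) in the 6 germline types, left of the dotted line, and the 11 somatic types, with 1 point per library. The late germline types lie above every somatic reading, pigment cells are the highest somatic type, and chinmoST GSCs/spermatogonia, at 210 to 450 CPM, lie within or under the range of the hub cells.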

How the data were processed

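Adult testes of 3 wild-type and 3 chinmoST libraries were profiled with 10x Genomics 3′ chemistry. The submitters' processing notes name Cell Ranger 4.0.0, Seurat 3.2.2 and 3.0, and dm6. The authors deposited raw UMI counts per gene and barcode, without normalization, and a table of cells with type and percent of mitochondrial UMIs, made by keeping barcodes with 200 to 6000 genes and under 10% mitochondrial UMIs. That annotation was used unchanged, and no doublet caller was run. The deposited combined count table was not needed.

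UMIs were summed per library and type. A library entered a fit with at least 3 cells. Tests used edgeR 4.0.16 (TMM, filterByExpr, quasi-likelihood F-test) in R 4.3.3, with limma 3.58.1, and DESeq2 1.42.0 as an alternative. The steps were tested on simulated data. Other values used Python 3.11.15, numpy 2.4.6, pandas 2.3.3, scipy 1.17.1 and matplotlib 3.10.9. Log2 values of CPM have a pseudocount of 1. The 8 members and the 2 related peptidases are named with values, list genes only when called, and the 10 genes most like the family by correlation among genes at a mean of at least 50 CPM. The members and lists were chosen with earlier results of these data known.

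The main fits within a type held genotype only, and pairing by age from the labels entered only as an alternative. Libraries were also compared for shared deviations in intermediate and late spermatocytes and spermatids. Correlations of deviations between libraries of the same age were 0.199 to 0.663 in these types. Pairs of 3–5 d with a later age gave -0.636 to -0.321. Pairs of different later ages gave 0.176 to 0.574, against 0.199 to 0.499 for the same later age. The correlations thus set 3–5 d apart from the later ages, but do not show pairing by age among the later libraries. Same-age correlations reached down to 0.00655 in GSCs/spermatogonia and 0.0195 in early spermatocytes. The alternatives tried were RLE scaling, library totals, no filter, DESeq2, the age as a block, cells of at least 2000 UMIs, leaving out each library, and leaving out both 3–5 d libraries. UMI counting limits precision, and intervals cover counting error only. Sequences of these genes were not used here.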

Additional observations from a re-analysis of the deposited data

Results flagged for a closer look

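S-Lap8 was the one member for which chinmoST lay below wild-type at each age in some germline types and above it at each age in others. In GSCs/spermatogonia and early spermatocytes it was lower in chinmoST at all 3 ages. It was higher in chinmoST at all 3 ages in intermediate spermatocytes, with a median chinmoST to wild-type ratio of CPM of 1.07, in early spermatids, with a median ratio of 1.32, and in late spermatids, with a median ratio of 1.34. These differences between types were not tested. In late spermatocytes it was also higher at all 3 ages. These orders are of CPM, which has no TMM scaling. With TMM scaling the edgeR log2 fold change was 0.0037 in intermediate and 0.057 in late spermatocytes. In intermediate spermatocytes it turned to -0.042 with no filter on low counts and to -0.052 without the 3–5 d libraries. The direction there thus depends on the processing. For late against early spermatocytes the difference was tested, and the edgeR interaction of S-Lap8 was 0.53 with an adjusted p of 0.731.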

How the results depend on the processing

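Members called of 8 varied with the setting in the early types. In GSCs/spermatogonia, 0 with all libraries, the count was 7 with scaling to library totals only, 1 with no filter on low counts, 4 with DESeq2 and 6 with cells of at least 2000 UMIs. Of all genes tested, these settings called 291 of 6469, 201 of 12869, 160 of 6467 and 203 of 6382 as lower. Leaving out 1 library gave 0 to 7, with 7 without the chinmoST 3–5 d library, where 740 of 6184 genes were called lower and 1292 higher. In early spermatocytes, 1 with all libraries, it was 4 with DESeq2, 2 with cells of at least 2000 UMIs, and 0 to 2 when 1 library was left out. Of all genes there, 80 of 6500 were called lower with DESeq2 and 336 of 6425 with the larger cells. With 1 library left out it was 0 to 512 genes. The age as a replicate block gave 3 in GSCs/spermatogonia and 2 in early spermatocytes, where libraries of the same age did not all deviate together. With this block 85 of 6469 and 725 of 6501 genes were called lower in these 2 types. The block changed no member call in the other 4 types. Without both 3–5 d libraries, an alternative chosen after seeing the data, the count was 7 in each of the first 4 types and 1 for the interaction, S-Lap5 at 1.02 with an adjusted p of 0.0415, where 510 of 9149 genes were called. Over the same setting 0 were called in spermatids. The cause of these changes was not tested.

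Scaling to library totals moved the median log2 fold change of all genes from 0.42 to -0.14 in GSCs/spermatogonia, from 0.06 to -0.12 in early spermatocytes, from 0.01 to 0.14 in intermediate spermatocytes and from 0.02 to 0.19 in late spermatocytes. No log2 fold change of a member turned in the first 2 types. Those that turned were all close to 0 and not called. S-Lap8 turned to -0.042 with no filter and -0.052 without the 3–5 d libraries in intermediate spermatocytes, with a range of -0.24 to 0.20 when 1 library was left out, and ranged from -0.15 to 0.22 in late spermatocytes. In early spermatids S-Lap1 was 0.033 with library totals, 0.011 with cells of at least 2000 UMIs and -0.14 to 0.050 with 1 library left out, S-Lap7 was -0.30 to 0.082 with 1 left out, and loopin-1 was 0.023 with library totals and 0.0075 with the larger cells. In late spermatids S-Lap1 was -0.0086 with RLE size factors, -0.038 with no filter, -0.0087 with DESeq2 and -0.15 to 0.16 with 1 library left out. S-Lap4 was 0.0051 with library totals and -0.14 to 0.053 with 1 left out. With 1 left out S-Lap3 was -0.22 to 0.10, S-Lap7 -0.31 to 0.093 and loopin-1 -0.15 to 0.0084.

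The mean summed level in chinmoST moved to 1416 CPM in GSCs/spermatogonia when each cell was scaled by itself. It moved to 4543 CPM in early spermatocytes with cells of at least 2000 UMIs and to 7262 CPM with cells scaled by themselves, and in late spermatocytes to 16923 and 15060 CPM. With all UMIs of a cell in place of 1000, the share of cells with any family UMI was 99.4% in chinmoST GSCs/spermatogonia, 99.7% in chinmoST early spermatocytes and 100.0% in intermediate spermatocytes of both genotypes. It was 100.0% in wild-type late spermatocytes, 100.0% and 99.9% in early spermatids of wild-type and chinmoST, 99.97% and 98.4% in late cyst cells, and 99.4% in chinmoST pigment cells.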

Other observations

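Barcodes that the authors removed for 10% or more mitochondrial UMIs also held family RNA. Their family level was 7173, 7833 and 7571 CPM in wild-type against 4262, 3116 and 2912 CPM in chinmoST, lower in chinmoST at each age. Barcodes with over 6000 genes stood at 11987, 15946 and 17602 CPM in wild-type against 11249, 12576 and 8369 CPM in chinmoST, again lower at each age. No cell type is assigned to these barcodes, so the mix of cells behind each value is not known.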
